A study of Rattus norvegicus with 6 samples.

Results

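A set of 6 genes of the unfolded protein response and the integrated stress response were followed in rat bone marrow stromal cells (BMSCs) held at 1% O2. BMSCs grow attached to plastic and include progenitors of osteoblasts, adipocytes and chondrocytes. The genes are Hspa5 (ENSRNOG00000018294), Atf4 (ENSRNOG00000017801), Ddit3 (ENSRNOG00000006789), Atf3 (ENSRNOG00000003745), Trib3 (ENSRNOG00000007319) and Asns (ENSRNOG00000007546), and they were chosen by Ensembl gene ID as known members of these responses. They are 6 of 32883 rows in the deposited table of read counts and 6 of the 12702 genes that passed the filter on low counts, so every one of them was tested. The table gives IDs alone, and the only gene table at hand, from RefSeq, holds an Ensembl ID for 0 of its 47357 genes. Which symbol belongs to which ID therefore rests on the choice of the genes and was not checked.

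The 1% O2 group held 3 libraries from primary BMSCs kept for 7 days at 1% O2. The control group held 3 libraries from cells labelled as normal culture, whose oxygen level is not stated. The medium of both groups was alpha-MEM plus 10% fetal bovine serum, and the labels give no strain, age or passage for either. Whether the 3 libraries of a group stem from different rats or dishes is not stated, so the spread behind each p-value is that between these samples and may be technical. The extraction protocol names muscle as the source of the RNA, but every other label names BMSCs. A batch of culture or library preparation that ran with the groups, of which the labels say nothing, cannot be told apart from oxygen. Markers of stroma, muscle and other cell types could not be looked up by ID, so the labelled cell type was not checked.

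Proteins that fail to fold in the endoplasmic reticulum (ER) draw the chaperone BiP, encoded by Hspa5, away from the sensors PERK, IRE1 and ATF6, and the released sensors raise the cell's folding capacity. PERK also phosphorylates the translation initiation factor eIF2alpha, as do the kinases that sense amino acid shortage, haem shortage and double-stranded RNA, and this shared step is the integrated stress response. It lowers protein synthesis in general but favours translation of ATF4, a transcription factor whose known targets include Ddit3, Atf3, Trib3 and Asns. Cells that secrete much collagen, as stromal cells and osteoblasts do, place a steady load on the ER, and ATF4 is known as a regulator of osteoblast function.

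Of the 6 genes, 4 rose at 1% O2, and they did so by unequal amounts. Trib3 rose 1.97-fold, Atf3 1.80-fold, Hspa5 1.38-fold and Atf4 1.15-fold. The Atf4 rise missed the threshold when libraries were scaled by their total reads alone (adjusted p = 0.0606, edgeR). Asns was 10.0% lower, a difference just past the threshold and lost in 4 of the 6 fits that left out 1 library. Ddit3 was level to within a 95% interval of 9.45% lower to 10.2% higher. Across all tested genes, 45.0% passed the threshold of 0.05 on the adjusted p, with 23.1% higher and 21.9% lower (edgeR quasi-likelihood test, Benjamini-Hochberg over 12702 genes). A count of 4 higher genes and 1 lower gene is therefore read against a table in which changed genes are common, and it is a description, since earlier results of these data were known when the genes were chosen.

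Total reads assigned to genes were 13273781 to 13361629 in the control libraries and 14879124 to 18533675 at 1% O2, where replicate 1 was the deepest. Levels are given as CPM (reads per 1000000 assigned reads) scaled by TMM factors, which align libraries on the bulk of their genes. Exon lengths were not at hand, so levels are compared between libraries and not between genes. Where read ratios of 2 genes are given, only their change between libraries is read. In bulk RNA, fewer cells that express a gene and less RNA of it per cell cannot be told apart.

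**Figure D1:**
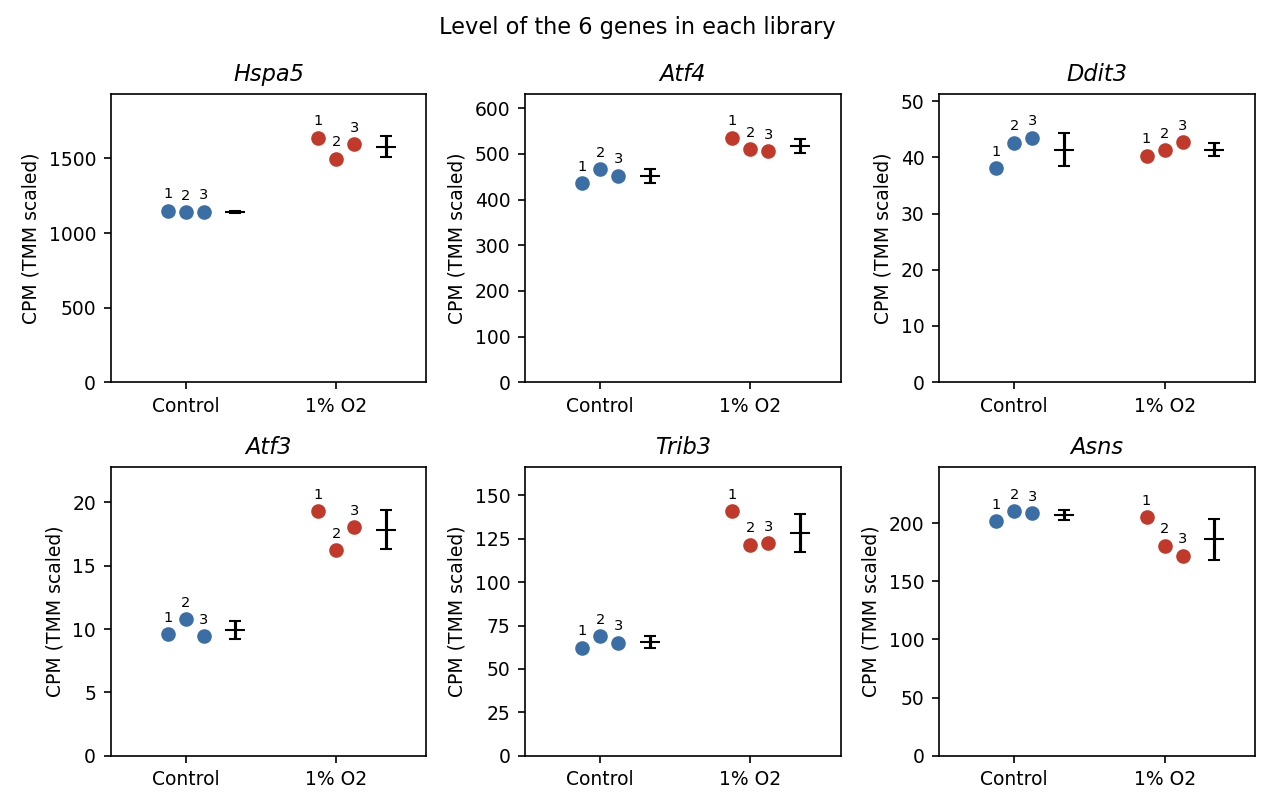
Level of each gene in each library in TMM-scaled CPM, with an axis from 0 in every panel. Points are libraries with their replicate number, and the bar beside each group is the mean with the SD (n = 3). The groups are apart for Hspa5, Atf4, Atf3 and Trib3, and they overlap for Ddit3 and Asns.

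Hspa5 encodes BiP, the main chaperone of the ER and the inhibitor of its stress sensors. Its level in control libraries 1, 2 and 3 was 1149.5, 1138.5 and 1142 CPM, and at 1% O2 it was 1640.5, 1499.9 and 1597 CPM. The lowest library at 1% O2 lay 350.4 CPM above the highest control, and the 3 controls were almost level with each other. The log2 fold change was 0.47 ± 0.04 (SE; adjusted p = 9.27e-07, edgeR), which is 1.38-fold with a 95% interval of 1.30 to 1.47. The means were 1143 ± 6 CPM in controls and 1579 ± 72 CPM at 1% O2 (SD, n = 3 each). Spread between libraries was 0.491% of the mean in controls, below the 0.799% that counting error alone gives at this depth, and 4.56% of the mean at 1% O2. The control libraries held 15628 to 15712 reads of Hspa5. It took 0.118% of all assigned reads in controls and 0.153% at 1% O2.

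The stretch just upstream of the Hspa5 start is shown because Hspa5 is the standard example of an ER stress response element (ERSE), the motif read by ATF6 together with the CCAAT-binding factor NF-Y. The motif searched was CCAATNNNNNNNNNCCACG, on both strands of the 250 bases before the start. The letters come from RefSeq on build GRCr8 (the counts were made on rn6), at chr3:38452866-38453015 on the plus strand, and end at the base before the start. Capitals mark the match.

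Hspa5: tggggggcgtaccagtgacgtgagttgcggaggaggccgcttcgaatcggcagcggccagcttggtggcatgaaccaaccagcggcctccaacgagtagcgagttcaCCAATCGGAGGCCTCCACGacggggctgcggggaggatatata

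This match, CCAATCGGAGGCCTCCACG, lies 43 to 25 bases upstream of the start. It is the only full match among the 5 of 6 genes with a promoter entry, the gene without one being Atf3. Of 33469 rat promoter entries of the same length, 22 (0.0657%) hold one. A match describes letters and does not show that a factor was bound.

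Atf4 encodes the transcription factor at the centre of the integrated stress response, which is controlled mainly through translation of its mRNA. Its mRNA level was 435.7, 467.1 and 452.6 CPM in control libraries 1, 2 and 3. At 1% O2 it was 536.0, 509.9 and 506.3 CPM. All 3 libraries at 1% O2 were above all 3 controls, with a gap of 39.3 CPM between the groups. The log2 fold change was 0.20 ± 0.04 (SE; adjusted p = 0.00225, edgeR), which is 1.15-fold with a 95% interval of 1.07 to 1.22. This size is modest within the table, since 55.3% of tested genes had a larger absolute log2 fold change.

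The Atf4 call depended on how libraries were scaled. With library totals alone, which lowers log2 fold changes by a median of 0.09 over all genes, the log2 fold change was 0.11 ± 0.04 (SE) and the adjusted p was 0.0606 by edgeR. On that scale the means were 465.5 ± 17.8 and 501.2 ± 16.1 CPM (SD, n = 3 each), and the groups still did not overlap. ATF4 protein was not measured.

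Ddit3 encodes CHOP, a transcription factor that is induced by ATF4 and linked to cell death under lasting ER stress. Its level was 38.0, 42.6 and 43.5 CPM in the controls and 40.3, 41.2 and 42.7 CPM at 1% O2. Every library at 1% O2 lay inside the range of the controls. The log2 fold change was -0.0014 ± 0.066 (SE) with an adjusted p of 0.989 by edgeR, and the 95% interval was -0.14 to 0.14. A rise of the size seen in Hspa5 lies outside this interval. The interval rests on 519 to 723 reads of Ddit3 per library, and with library totals alone the log2 fold change was -0.09 with an adjusted p of 0.28 by edgeR.

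Atf3 encodes an early stress-induced factor of the same bZIP class, which can repress its targets, and is known to be raised by ATF4 and by other stress signals. It had the fewest reads of the 6 genes, with 131, 148 and 130 in the controls and 347, 236 and 259 at 1% O2. These correspond to 9.60, 10.8 and 9.45 CPM and to 19.3, 16.2 and 18.0 CPM. The lowest library at 1% O2 was 5.44 CPM above the highest control. The log2 fold change was 0.85 ± 0.10 (SE; adjusted p = 1.3e-05, edgeR), which is 1.80-fold with a 95% interval of 1.55 to 2.09. Counting error alone gives a spread of 8.56% of the mean in controls and 5.97% at 1% O2, and the observed spreads were 7.34% and 8.71%.

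Trib3 encodes a pseudokinase that is induced by ATF4 and CHOP and feeds back on them, and that also binds the kinase AKT. It showed the largest change of the 6 genes. Its level was 62.1, 68.8 and 65.2 CPM in the controls and 141.0, 121.7 and 122.3 CPM at 1% O2. The groups were 52.9 CPM apart at their nearest libraries. The log2 fold change was 0.98 ± 0.06 (SE; adjusted p = 3.62e-08, edgeR), which is 1.97-fold with a 95% interval of 1.79 to 2.16. Only 5.02% of tested genes had a larger absolute log2 fold change, and for Atf3 the share was 6.95%. A rise of at least 1.5-fold with an adjusted p under 0.05 was found for 7.21% of all tested genes, and Trib3 and Atf3 were the members past it.

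The Trib3 upstream stretch is shown for the C/EBP-ATF response element (CARE), the composite motif through which ATF4 and its C/EBP partners are known to act. The motif searched was TGATGNAA on both strands. The stretch comes from RefSeq on build GRCr8 at chr3:161275534-161275683 on the minus strand, written 5′ to 3′ along the gene and ending at the base before the start. Capitals mark the match.

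Trib3: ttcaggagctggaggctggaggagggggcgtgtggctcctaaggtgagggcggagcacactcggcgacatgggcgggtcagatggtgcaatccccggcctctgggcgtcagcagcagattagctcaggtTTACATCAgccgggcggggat

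The match reads TTACATCA along the gene and TGATGTAA on the opposite strand, 21 to 14 bases upstream of the start. Among all promoter entries 3.4% hold a match, and no match lay in the 250 bases upstream of Hspa5, Atf4, Ddit3 or Asns. These windows are short, and elements farther away or within a gene were not searched.

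SP1 is the transcription factor in the title of the series, and its classical site is the GC box GGGCGG. On either strand it occurred 3 times upstream of Trib3, 2 times upstream of Asns with the copies overlapping by 1 base, and 1 time upstream of Hspa5. It was not found upstream of Atf4 or Ddit3 within 250 bases, and 30.5% of all promoter entries hold it. The core of the hypoxia response element bound by HIF was searched as ACGTG and as GCGTG. The first form occurred upstream of Hspa5, Atf4, Ddit3 and Asns and in 16.6% of all entries. The second form occurred upstream of Atf4, Ddit3, Trib3 and Asns and in 25.9%. Atf3 has no promoter entry, so no motif was searched upstream of it.

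Asns encodes asparagine synthetase, which makes asparagine from aspartate and glutamine and is a standard ATF4 target under amino acid shortage. Its level was 201.6, 210.3 and 208.3 CPM in the controls and 205.2, 180.7 and 171.8 CPM at 1% O2. Replicate 1 at 1% O2 lay within the control range, and the other two lay below it. The log2 fold change was -0.15 ± 0.06 (SE; adjusted p = 0.0484, edgeR), which is 1.11-fold lower, and its 95% interval was -0.28 to -0.03. Spread at 1% O2 was 9.31% of the mean against 2.20% in the controls.

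The Asns call was fragile. DESeq2 gave an adjusted p of 0.0622 for it, and it was also lost in 4 of the 6 fits that left out 1 library, with log2 fold changes of -0.17 (without Control replicate 1), -0.15 (without Control replicate 3), -0.13 (without Hypoxia replicate 2) and -0.10 (without Hypoxia replicate 3). Without Hypoxia replicate 1 it was -0.23, with an adjusted p of 0.00453 by edgeR. With library totals alone the groups did not overlap, at 213 ± 5 and 180 ± 17 CPM (SD, n = 3 each), and the log2 fold change was -0.24 with an adjusted p of 0.00422 by edgeR. That scaling shifts log2 fold changes by a median of -0.09 over all genes. Under it 3987 genes of the table were called lower, against 2786 as reported. Asns was lower in each of these fits and rose in none of them.

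**Figure D2:**
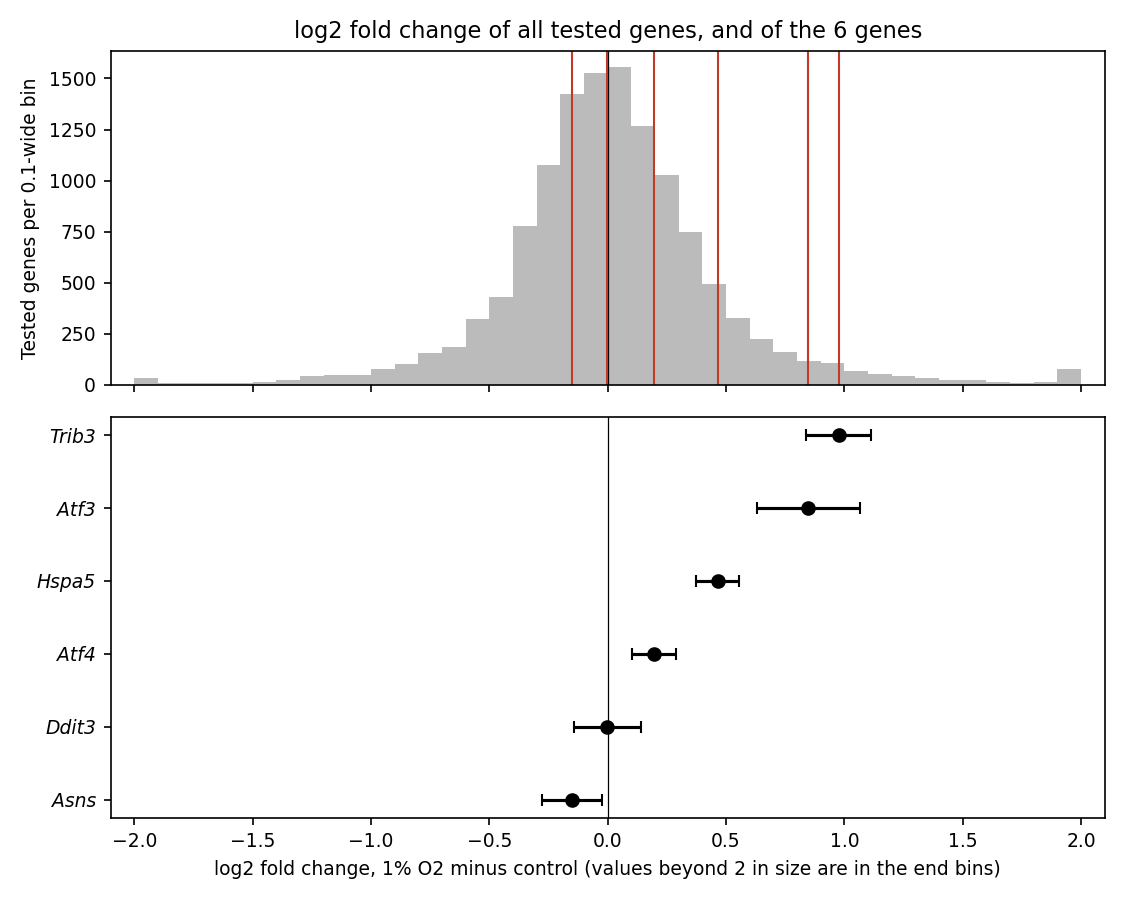
Top, histogram of the log2 fold change of all 12702 tested genes, with red lines at the 6 genes and values beyond 2 in size placed in the end bins. Bottom, log2 fold change of each gene with its 95% interval (n = 3 against 3). Trib3 at 0.98 and Atf3 at 0.85 lie toward the right tail, Ddit3 lies near 0 and Asns at -0.15.

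Set in order of fold change, the genes ran Trib3, Atf3, Hspa5, Atf4, Ddit3 and Asns. The intervals of the neighbours Trib3 and Atf3 overlapped, as did those of Ddit3 and Asns and those of Atf4 and Ddit3, whereas those of Atf3 and Hspa5 and of Hspa5 and Atf4 did not. The median log2 fold change of the 6 genes was 0.33, against 0.0025 over all tested genes. All 3 libraries at 1% O2 lay above all 3 controls for 4 of the 6 genes and for 28.2% of all tested genes. On the same TMM scale they lay below all controls for 0 of the 6 genes and for 27.4% of all tested genes, while with library totals alone this held for Asns. The share of all tested genes with library totals alone was not computed.

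Ratios of 2 genes within the same library do not depend on how libraries are scaled. The log2 ratio of Trib3 to Atf4 reads was -2.81, -2.76 and -2.80 in the controls and -1.93, -2.07 and -2.05 at 1% O2, so Trib3 gained 1.71-fold on Atf4. Atf3 gained 1.57-fold on Atf4 and Hspa5 gained 1.20-fold. The ratio of Ddit3 to Atf4 went the other way, from a mean log2 ratio of -3.45 ± 0.07 to -3.64 ± 0.08 (SD, n = 3 each). That of Asns to Atf4 went from -1.13 ± 0.02 to -1.48 ± 0.09. For each of these 5 ratios the groups did not overlap. Atf4, which all of them share, separated the groups by itself. The share of all tested genes whose ratio to Atf4 separates the groups was not computed.

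**Figure D3:**
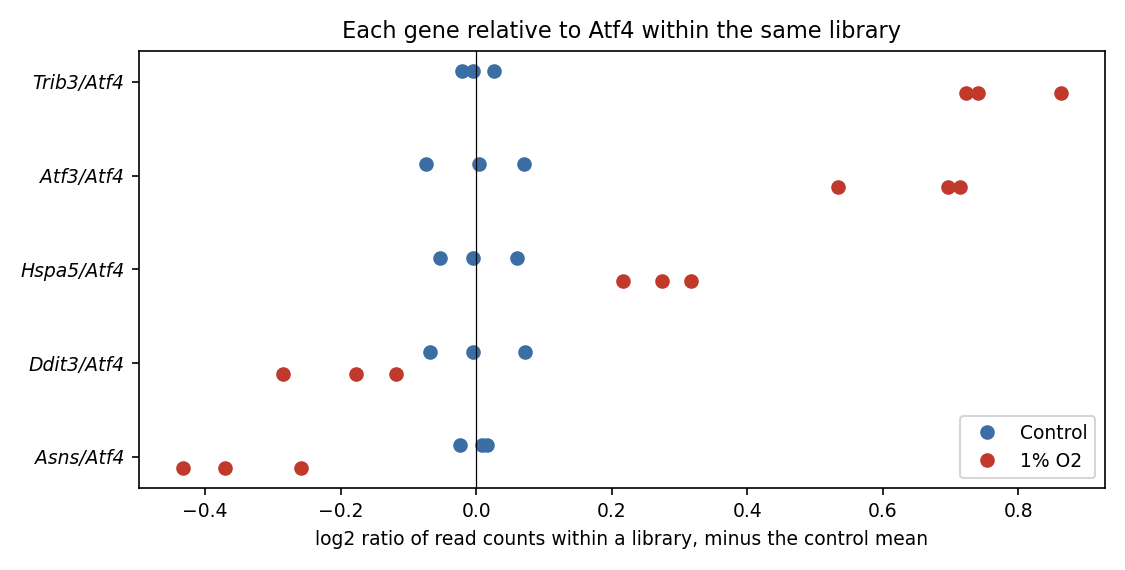
log2 ratio of read counts of each gene to Atf4 within the same library, minus the mean of the 3 controls. Points are libraries. Trib3, Atf3 and Hspa5 lie to the right of the controls at 1% O2, and Ddit3 and Asns lie to the left.

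Among the 15 pairs of the 6 genes, 13 ratios separated the groups. The pairs share genes, and 4 of the 6 genes separated the groups on their own. Single genes did so often over the table, with 28.2% of tested genes apart on the higher side and 27.4% on the lower side. How often ratios of other gene pairs separate the groups was not computed, so the count is a description. For each of the 13 ratios an exact permutation test (two-sided) gave p = 0.1, the smallest that 3 libraries against 3 allow, and 0.115 after Benjamini-Hochberg adjustment over the 15 pairs. Any ratio that separates the groups gives this p, so the test only restates the separation. The ratios that overlapped were Atf3 to Trib3, with a difference of -0.13 in mean log2 ratio, and Ddit3 to Asns, with a difference of 0.16. Their exact permutation p-values were 0.2 and 0.3. The widest shift was between Trib3 and Asns, whose mean log2 ratio went from -1.66 ± 0.05 in controls to -0.53 ± 0.04 at 1% O2 (SD, n = 3 each), a 2.19-fold gain of Trib3 on Asns.

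The deepest library, 1% O2 replicate 1, was also the highest of its group for 5 of the 6 genes, Ddit3 being the exception. Control replicate 1 was the lowest of its group for 4 of the 6. The same shares over all tested genes were not computed. Without 1% O2 replicate 1 the log2 fold changes were 0.44 for Hspa5, 0.17 for Atf4, 0.78 for Atf3 and 0.90 for Trib3, each still past the threshold by edgeR. After thinning every library to the smallest total they were 0.47, 0.20, 0.82 and 0.97. Control replicate 2 stood apart from the other controls over the whole table: of 5014 genes whose mean log2 CPM reached 5, 297 were over 0.3 away from the mean of the other two, against 56 and 50 for Control replicates 1 and 3. Without it the log2 fold changes were 0.46, 0.22, 0.91 and 1.02.

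**Figure D4:**
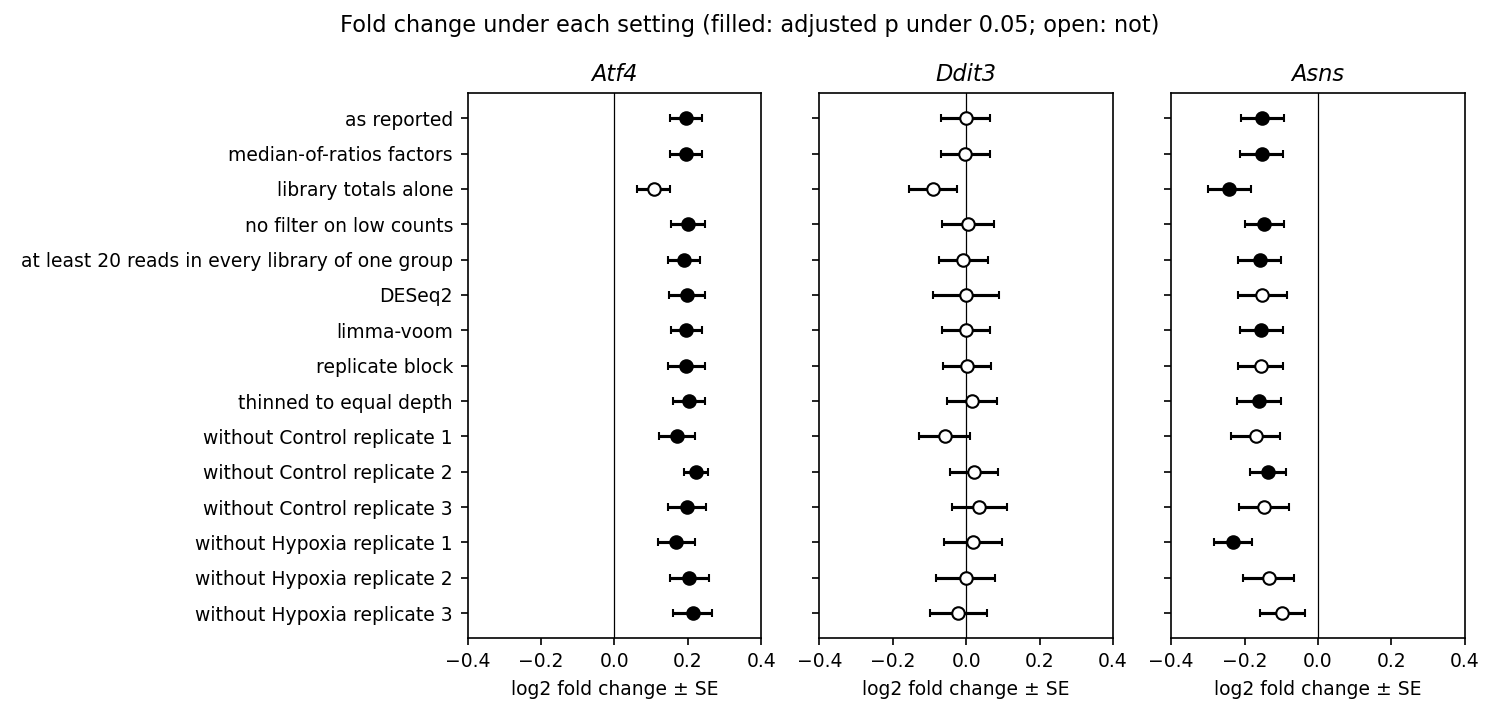
log2 fold change ± SE of Atf4, Ddit3 and Asns as reported and under each of 14 other settings. Filled points have an adjusted p under 0.05. Atf4 lost its call with library totals alone, Asns lost it under 6 settings, and Ddit3 stayed near 0 with no call.

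The likeness of profiles was measured as the root mean square difference between log2 CPM values centred on each gene's mean over the 6 libraries. Among the 6 genes the closest pair was Atf3 and Trib3, 0.087 log2 units apart, followed by Atf4 and Ddit3 at 0.116. Trib3 and Asns were farthest apart at 0.565. Within 0.1 log2 units of Trib3 lay 31 other tested genes (0.244%), of which the nearest was ENSRNOG00000027736 at 0.052, and that gene rose from 362 ± 13 to 692 ± 35 CPM (SD, n = 3 each). Within the same distance of Asns lay 1462 genes (11.5%), and the nearest was ENSRNOG00000054775 at 0.025, with 56.9 ± 1.0 CPM in controls and 52.1 ± 3.8 CPM at 1% O2. Hspa5 had 562 genes that near (4.42%), Atf3 had 36 (0.283%), Atf4 had 1873 (14.7%) and Ddit3 had 1978 (15.6%). Genes with small changes have many close profiles by construction of this measure. Which genes the IDs name was not analysed here.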

How the data were processed

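The authors deposited raw read counts per Ensembl gene ID for 6 poly(A) mRNA libraries from a stranded kit. Per the submitters' processing notes, HISAT2, featureCounts and DESeq2 were used with build rn6. Versions, annotation release and the setting for strand were not given in the sources used here, so overlapping or antisense genes may share reads. From the counts, edgeR 4.0.16 (R 4.3.3) was run on the whole table: filterByExpr (minimum count 10, minimum total 15), TMM factors, and a two-sided quasi-likelihood F-test of 1% O2 against control. Benjamini-Hochberg adjustment covered all tested genes, with a threshold of 0.05. The SE is the log2 fold change divided by the square root of F, and intervals use it with the test's degrees of freedom. A prior count of 2 entered log2 CPM. The fit was checked on simulated data with few changed genes in random directions. That check therefore does not bear on the choice of scaling for these libraries.

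Members, lists and the rule for named genes (all 6 members, and the nearest profile of the genes that rose and fell most) were chosen with earlier results of these data known. Of the planned lists, 11 pathway or check lists and 5 marker lists need symbols and were not run. The alternatives tried were scaling by median-of-ratios factors or by library totals, 2 filters, DESeq2 1.42.0, limma-voom (limma 3.58.1), a replicate block, leaving out each library and, chosen after seeing the data, thinning to equal depth. Promoter letters are RefSeq's.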

Additional observations from a re-analysis of the deposited data

How the results depend on the processing

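Hspa5, Atf3 and Trib3 were higher and past the threshold under each of 14 settings, with log2 fold changes of 0.38 to 0.50, 0.76 to 0.91 and 0.89 to 1.02. Atf4 lost its call with library totals alone (0.11) and kept it under the other 13 settings. Ddit3 passed the threshold under none. Its sign changed without a filter (0.0040), with DESeq2 (0.00041), with the replicate block (0.0020) and after thinning (0.016), and it ranged from -0.058 to 0.036 when 1 library was left out. Asns stayed lower under all 14 but lost its call with DESeq2 (-0.15, leaving 0 lower members), with the replicate block (-0.16, leaving 0) and without 4 libraries in turn, over a leave-one-out range of -0.23 to -0.10 and of 0 to 1 lower members. The cause was not tested. Over the table, 4408 to 6071 genes changed, against 5718 as reported. With library totals 2084 were higher and 3987 lower, against 2932 and 2786. The block used the replicate number, which the labels do not tie to shared animals or batches. Same-numbered libraries deviated with correlations of -0.19, -0.2 and 0.034 over 5014 genes, and 1 of 6 libraries was closest to its own number, so no pairing was assumed. The block gave 5295 changed genes. Among the 6 genes counting error was largest for Atf3, at 8.56% of the mean in controls and 5.97% at 1% O2. Pathway lists were not run for want of symbols.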
